A study of Saccharomyces cerevisiae with 4 samples.

Results

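The genes examined in Saccharomyces cerevisiae, on 4 spotted two-channel arrays, numbered 6: HAA1, the deleted gene, CUP2 (also called ACE1) and MAC1, which encode related transcription factors, and ICL2, REC8 and SUT2, which lie beside HAA1. They were found by gene symbol or alias in the platform annotation, which gave 6 spots, 1 a gene, of 8832 spots and 5574 named genes in all. The members were set by name and not by any measured value. On each array, total RNA from lpz8 null cells, in Cy5, was hybridised with total RNA from wild-type (WT) cells, in Cy3. The null cells had been grown in high copper for 2 arrays and in low copper for the other 2, and the labels mark 1 array per condition as a repeat. The sources used here do not give the null strain's background, the copper concentrations or the copper condition of the WT cells, nor whether the 2 arrays of a condition came from separate cultures. The p-values rest on array-to-array spread that may be no more than technical. lpz8 was read as HAA1 from the series title. No dyes were exchanged, so a dye effect on a single gene could not be told apart from the genotype.

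The DNA-binding domain shared by Haa1, Cup2 and Mac1 is known as the copper fist. Cup2 takes up copper through it and then activates the metallothionein genes, which protect the cell from excess copper, while Mac1 is active in copper-starved cells and drives the genes of high-affinity copper uptake. Haa1 carries the same kind of domain but is known mainly for the response to weak organic acids, through membrane transporters and cell wall proteins.

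Values below are log2 ratios of null over WT after each array was centred on its median, with negative values where null cells had less of the transcript. The log base was read from the values and is an assumption. The 4 arrays held 7254 to 8409 values each. The share of spots with no value was 17.9% on low copper replicate 1 and 4.79% to 5.82% on the other arrays. Across genes, Pearson's r was 0.71 between the 2 high copper arrays and 0.46 between the 2 low copper arrays, where genes are not independent replicates. Genes with values on all 4 arrays (5137) were tested with limma, and 600 of them (11.7%) passed an adjusted p of 0.05 over both copper conditions. HAA1 and REC8 lacked a value on low copper replicate 1 and were tested in a second fit over 5537 genes with values on at least 3 arrays, in which 469 (8.47%) passed. None of the 6 spots lay in or next to a run of 528 spots on high copper replicate 1 whose values stood 24 places from their positions. The fits left this run in place, and 405 named genes lay in it or in the 24 spots after it. With the run moved back, 751 of 5148 genes passed over both conditions. Unlike the members, the genes of the lists below were not checked for a place in the run, so their counts may include displaced values.

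HAA1 was far lower in null cells on every array that measured it. Its log2 ratio was -6.96 and -4.15 on high copper replicates 1 and 2, against -7.35 on low copper replicate 2, with a mean of -6.15 ± 1.75 (SD, n = 3). The spot was the lowest of 8353 on low copper replicate 2, the second lowest of 8409 on high copper replicate 1 and the ninth lowest of 8318 on high copper replicate 2. In the fit over at least 3 arrays the mean of both conditions was -6.45 (SE 0.70, 95% interval -8.67 to -4.23) with a limma adjusted p of 0.0431, and HAA1 passed the threshold. The call was lost without centring (adjusted p = 0.0532) and with spots tested one by one (0.0516), and over all alternatives with a test the adjusted p ran between 0.0279 and 0.0532. A fold for HAA1 is left out, since channel intensities were not used here and the null signal may have been background. By single conditions HAA1 had an adjusted p of 0.0933 in high copper and 0.101 in low copper, where 1.9% and 0.542% of the 5537 genes passed. Values below 0 on all of its 3 arrays were found for 28.9% of genes, so that its size and not its sign set HAA1 apart. Its SD, 1.75, exceeded that of each other member.

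No difference by copper was resolved for HAA1. The high copper mean was -5.55 and the single low copper value -7.35, a difference of 1.79 with a 95% interval of -2.65 to 6.23 and an adjusted p of 0.574. It was 3.20 without high copper replicate 1 and 0.39 without high copper replicate 2, with no test possible in either case. Over all genes, 0 of 5137 and 0 of 5537 (0.0% in either fit) passed for high minus low copper in limma, and 792 (15.4%) and 793 (14.3%) had an unadjusted p under 0.05. The spots numbered directly before and after that of HAA1, those of ICL2 and RPA135, stood between -0.39 and 0.21 on the 4 arrays and showed no such low values.

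**Figure D1:**
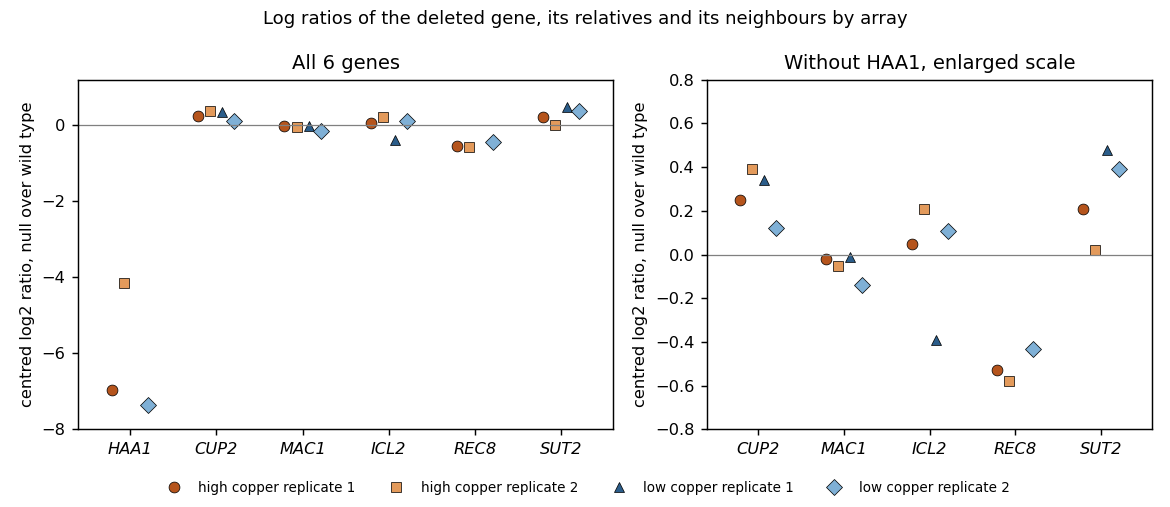
Centred log2 ratio of null over WT (vertical axis) for each of the 6 genes (horizontal axis), 1 point per array, with high copper arrays to the left of low copper arrays. HAA1 lies between -7.35 and -4.15 on its 3 arrays, and the right panel enlarges the other 5 genes, which lie between -0.58 and 0.48.

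CUP2, the copper-activated relative, stood slightly above 0 on all 4 arrays. Its log2 ratio was 0.25 and 0.39 on the high copper arrays, against 0.34 and 0.12 on the low copper arrays, and the conditions overlapped. The mean was 0.28 ± 0.12 (SD, n = 4) with a 95% interval of 0.09 to 0.46, an unadjusted p of 0.0141 and a limma adjusted p of 0.0716, so CUP2 did not pass. A value above 0 on all 4 arrays was found for 20.0% of genes, and 73.1% of genes had a mean nearer to 0. The threshold was passed when arrays were scaled to equal spread (0.27, adjusted p = 0.048), as it was by 894 of 5137 genes. It was also passed without low copper replicate 2 (0.33), a fit with a single low copper array in which far more genes passed. High minus low copper was 0.09, with a 95% interval of -0.28 to 0.46.

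MAC1, the copper-starvation relative, lay close to 0 on every array. The values were -0.02 and -0.05 on the high copper arrays, against -0.01 and -0.14 on the low copper arrays, a mean of -0.05 ± 0.06 (SD, n = 4). Its interval, -0.21 to 0.10, left room for a change of at most 0.21 in size at the 95% level, and its adjusted p was 0.509. MAC1 was below 0 on all 4 arrays, as were 21.6% of genes, and 18.6% of genes had a mean nearer to 0. Only 5.35% of genes varied less over the 4 arrays. Its high minus low copper difference was 0.04 (95% interval -0.27 to 0.35, adjusted p = 0.87). Both relatives were thus measured on all 4 arrays with a spread below the median SD of all genes, 0.18.

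The targets of the 2 relatives were described next, from lists chosen with earlier results of these data known. Of 4 genes driven by Cup2, 3 were higher in null cells over both conditions (higher among all genes 6.44%), with a list median of 0.56 against -0.02 over all genes. CUP1-1 and CUP1-2, near-identical copies of the metallothionein gene that cannot count as separate measurements, stood at 0.71 ± 0.12 and 0.66 ± 0.08 (SD, n = 4), and SOD1, the cytosolic superoxide dismutase, at 0.45 ± 0.14. CRS5, the second metallothionein gene, stood at 0.36 and 0.20 in high copper, against -0.38 and -0.24 in low copper, without passing in either. Its difference, like that of every gene, did not pass between conditions. In high copper 2 of the 4 genes were higher (1.07% of all genes), CUP1-1 and CUP1-2, which are not 2 separate measurements. In low copper 0 were (0.234%), with 3 above and 1 below 0 at an unadjusted p under 0.05 (30.5% of all genes in either direction). The 3 genes higher over both conditions likewise hold both copies.

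Mac1-driven genes did not move one way over both conditions. Of 5 measured on all 4 arrays, 1 was lower (5.24% of all genes) and 0 were higher, with a median of 0.05. In high copper 0 of the 5 had a mean above 0 (median -0.18, highest -0.01) and 1 was lower (1.5% of all genes). In low copper 3 had means above 0 (median 0.12) and 0 passed (0.662% of all genes). IRC7, a cysteine desulfhydrase, was the lower one, at -0.77 and -0.68 in high copper, against -0.21 and -0.38 in low copper (adjusted p = 0.0267). CTR1, a copper uptake transporter of the plasma membrane, stood at -0.17 and -0.20 in high copper, against 0.39 and 0.24 in low copper, groups that did not overlap. Such an order, high copper below low copper on both arrays, was found for 27.1% of genes. CTR3, a second copper transporter, varied most, with -0.24 and -0.40 in high copper, against -1.54 and -0.01 in low copper. FRE7, a metalloreductase gene with no measurement on low copper replicate 1, had a mean of -0.39 ± 0.16 (SD, n = 3) and an adjusted p of 0.0842.

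Genes that carry copper to enzymes and organelles included 2 calls. Of 11 measured on all 4 arrays, 2 were higher (6.44% of all genes) and 0 lower (5.24%), 10 had means above 0, and the median was 0.25 against -0.02 over all genes. COX17, which delivers copper to mitochondria, stood at 0.28 and 0.58 in high copper, against 0.61 and 0.52 in low copper, a mean of 0.50 ± 0.15 (SD, n = 4) with an adjusted p of 0.0354. COX11, needed to insert copper into cytochrome oxidase, stood at 0.33 ± 0.16 (SD, n = 4) with 0.0452, and SCO1, also of copper supply to that enzyme, at 0.28 ± 0.07 with 0.0553. PIC2, a mitochondrial carrier of phosphate and copper, stood at -0.51 on both high copper arrays, against 0.35 and 0.12 on the low copper arrays, with an adjusted p of 0.207 over both. COX19 was not tested.

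**Figure D2:**
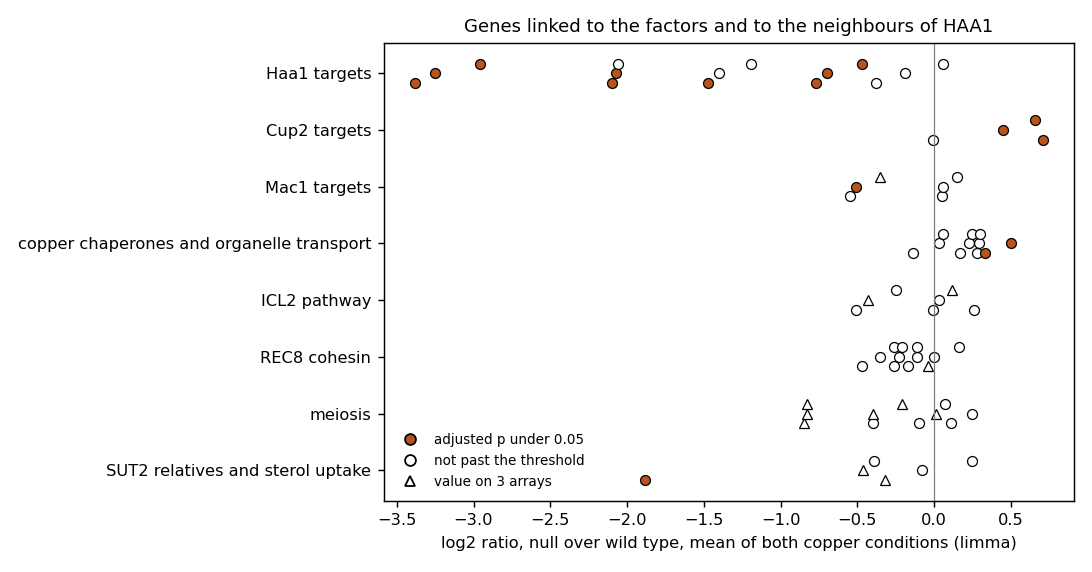
Limma log2 ratio of null over WT averaged over both copper conditions (horizontal axis) for the genes of 8 lists (vertical axis), 1 point a gene, filled where the adjusted p is under 0.05 and drawn as a triangle where only 3 arrays had a value. Haa1 targets reach -3.38, Cup2 targets lie between -0.01 and 0.71, and the lists around ICL2 and REC8 hold no filled point.

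For scale, 9 of 15 literature targets of Haa1 fell over both conditions (5.24% of all genes) and 0 rose (6.44%), with a median of -1.40. That list was chosen with earlier results of these data known, and its count is not independent evidence of direction. The smallest p-values belonged to YGP1, a cell wall glycoprotein (-2.10), TPO2, a polyamine exporter (-3.25), and YLR297W (-2.07), each with an adjusted p of 0.00308. The 3 genes nearest to HAA1 in profile, by root mean square distance over its 3 arrays among 5507 genes, were of this list: TDA6 (distance 3.27), TPO2 (3.31), and YRO2, a membrane protein (3.38). The mean of HAA1 over the 3 arrays was lower than that of any other gene measured on them, although 8 spots lay lower on high copper replicate 2 alone. Nearness to HAA1 therefore mostly reflects how far a gene fell, and distances of 3.27 to 3.38 do not show a shared profile. TDA6 stood at -3.98 and -3.85 in high copper, against -2.54 on low copper replicate 2, where HAA1 was lowest.

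The locus of HAA1 was examined next, by gene order in the RefSeq table of assembly R64. No coordinates are given because the build behind the array was not stated. Of the 10 genes within 5 places on either side, 7 had spots, and 0 of these 7 passed the limma threshold over both conditions. Among all genes 8.47% passed in the fit over at least 3 arrays and 11.7% in the other, so 0 of 7 does not set the locus apart. REC8 and SUT2 had an unadjusted p under 0.05 (34.8% of genes in the fit over at least 3 arrays and 35.6% in the other). The 2 tRNA genes and MRA1 had no spot. By their locus tags, REC8 lies upstream of HAA1 on the opposite strand, reading away from it with a tRNA gene between them, and SUT2 is the next gene downstream, on the same strand as HAA1.

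REC8 encodes the meiosis-specific subunit that closes the cohesin ring. It was below 0 on all 3 arrays that measured it, with -0.53 and -0.58 in high copper, against -0.43 on low copper replicate 2. The mean was -0.51 ± 0.08 (SD, n = 3), and in the fit over at least 3 arrays the mean of both conditions was -0.49, with a 95% interval of -0.72 to -0.26 and an adjusted p of 0.0578, so it did not pass. It passed when arrays were scaled to equal spread (-0.55, adjusted p = 0.0401), as did 779 of 5537 genes. It also passed without low copper replicate 1, where the gene itself had no value (-0.49), a fit with a single low copper array. High minus low copper was -0.13 (95% interval -0.59 to 0.33).

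Genes that, like REC8, lacked a value only on low copper replicate 1 were lower as a class. These 371 genes had a median of -0.30 over the other 3 arrays, with quartiles of -0.54 and -0.07, against -0.01 for the 5137 genes with all 4 values. Of the 371 genes, 54.7% were below 0 on all 3 arrays, against 27.0% of the genes with all 4 values. Genes lower than REC8 numbered 100 of the 371 (27.0%) and 159 of the 5137 (3.1%). Its SD over the 3 arrays was smaller than in all but 28 of the 371 (7.55%), while 1154 of the 5137 (22.5%) had a smaller SD. Whether weak signal stood behind the missing values and the low ratios was not tested. HAA1 lay below every gene of either class.

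**Figure D3:**
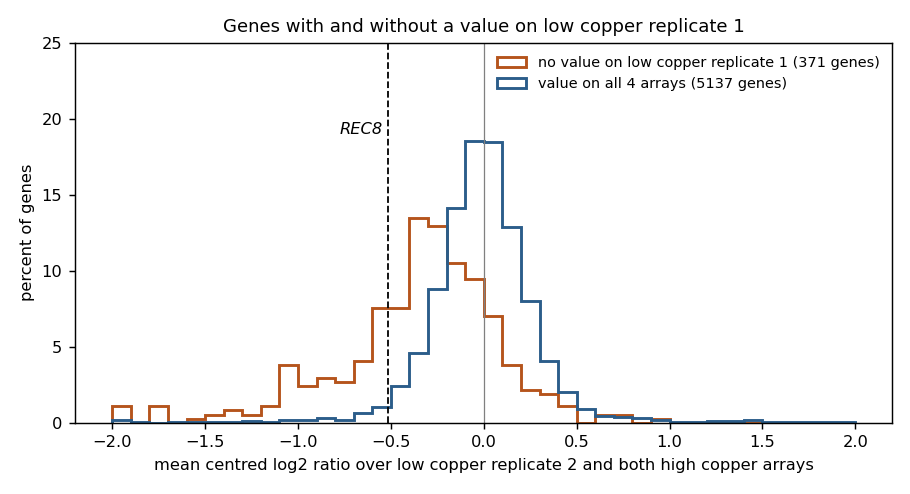
Percent of genes (vertical axis) by mean centred log2 ratio over low copper replicate 2 and both high copper arrays (horizontal axis, values beyond 2 in size drawn in the end bins). The 371 genes with no value on low copper replicate 1 lie lower, with a median of -0.30, than the 5137 genes with all 4 values, and the dashed line marks REC8 at -0.51.

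The partners of REC8 in cohesin did not pass either. Of 11 cohesin and cohesion genes on all 4 arrays, 0 passed in limma over both conditions (11.7% of all genes). At an unadjusted p under 0.05, 3 were below 0 (35.6% of all genes in either direction), and the median was -0.21 against -0.02 over all genes. In low copper the median was -0.42, with 4 below 0 at an unadjusted limma p under 0.05 (30.5% of all genes in either direction). In high copper the median was -0.0, with 0 at that level (24.6%). MCD1, the subunit that takes the place of Rec8 in mitosis, stood at 0.01 and -0.03 in high copper, against -0.30 and -0.36 in low copper (adjusted p = 0.106 over both). SCC4, which helps load cohesin, stood at -0.47 ± 0.39 (SD, n = 4) with 0.0994, and on low copper replicate 1 at -1.04. SMC3, a core subunit of the ring, stood at 0.07 and 0.04 in high copper, against -0.70 and -0.46 in low copper.

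Part of the meiotic genes had the missing value of REC8. Of 12, 6 lacked a value only on low copper replicate 1, as did 6.74% of all genes measured on the other 3 arrays. Another 5 had values on all 4 arrays, of which 0 passed in limma over both conditions (11.7% of all genes). Of these 5, 1, IME2, had an unadjusted p under 0.05 (35.6% of all genes). IME2, a kinase that starts meiosis, stood at 0.25 ± 0.15 (SD, n = 4) with an adjusted p of 0.0594. Of the 6 without low copper replicate 1, HOP1 and RED1, of the axis of meiotic chromosomes, had the lowest means, -1.06 ± 0.95 and -0.97 ± 0.81 (SD, n = 3). MND1, of meiotic strand exchange, stood at -0.40 ± 0.18, and MEK1, ZIP1 and SPO11 at -0.94 ± 0.94, -0.26 ± 0.25 and -0.06 ± 0.24. None of these 6 passed in the limma fit over at least 3 arrays, where 8.47% of genes did. Each of these SDs exceeded that of REC8, 0.08. IME1, the master regulator of entry into meiosis, stood at -0.34 and 0.00 in high copper, against -1.06 and -0.21 in low copper, with an adjusted p of 0.171.

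SUT2, a putative zinc cluster factor related to Sut1, stood above 0 on all 4 arrays. The values were 0.21 and 0.02 in high copper, against 0.48 and 0.39 in low copper, and the groups did not overlap. Values above 0 on all 4 arrays were found for 20.0% of genes, and high copper arrays below both low copper arrays for 27.1%. The mean was 0.28 ± 0.21 (SD, n = 4), with a 95% interval of 0.10 to 0.45, an unadjusted p of 0.0108 and an adjusted p of 0.0641. It did not pass, except without low copper replicate 2 (0.30), a fit with a single low copper array in which far more genes passed. In low copper alone it stood at 0.44 with an adjusted p of 0.0868, where 34 genes (0.662%) passed, and in high copper at 0.12 with 0.484, where 132 genes (2.57%) passed. High minus low copper was -0.32, with a 95% interval of -0.67 to 0.02 and an adjusted p of 0.348.

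In the list drawn up around SUT2 and sterol uptake, 4 genes had values on all 4 arrays, of which 1 was lower (5.24% of all genes) and 0 were higher (6.44%). That gene was DAN1, a cell wall mannoprotein of cells short of oxygen, at -2.91 and -2.47 in high copper, against -0.99 and -1.13 in low copper (adjusted p = 0.007 over both). ECM22, a regulator of sterol synthesis, stood at 0.55 and 0.40 in high copper, against 0.05 and 0.01 in low copper, with an adjusted p of 0.0637. SUT1, the paralog and an activator of sterol uptake, was not measured on low copper replicate 1 and stood at -0.76 and -1.03 in high copper, against -0.02 on low copper replicate 2, with an adjusted p of 0.087 in the fit over at least 3 arrays.

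ICL2, a mitochondrial 2-methylisocitrate lyase of propionate breakdown, had no consistent sign. Its values were 0.05 and 0.21 in high copper, against -0.39 and 0.11 in low copper, and the 2 conditions overlapped. The mean was -0.01 ± 0.27 (SD, n = 4), with a 95% interval of -0.29 to 0.27 and an adjusted p of 0.962. The sign turned without low copper replicate 1 (0.12), without high copper replicate 1 (0.03) and with arrays scaled to equal spread (0.02). High minus low copper was 0.27 (95% interval -0.29 to 0.84, adjusted p = 0.539).

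The list drawn up around ICL2 also took in genes of the glyoxylate cycle. Of its 5 genes on all 4 arrays, 0 passed in limma over both conditions (11.7% of all genes). At an unadjusted p under 0.05, 1 stood above and 1 below 0 (35.6% of all genes in either direction). ICL1, the isocitrate lyase of the glyoxylate cycle and relative of ICL2, stood at -0.25 ± 0.06 (SD, n = 4), below 0 on each array, with an adjusted p of 0.0623. CIT2, the peroxisomal citrate synthase, stood at 0.26 ± 0.18 with 0.118, and CIT3, the citrate and methylcitrate synthase of mitochondria, at -0.51 ± 0.55 with 0.195. PDH1, which acts before ICL2 in propionate breakdown, lacked low copper replicate 1 and ranged between -0.36 and 1.10 on the other arrays.

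The other measured genes within 5 places of HAA1 did not pass either. RPA135, next to SUT2 and a subunit of RNA polymerase I, stood at -0.11 ± 0.05 (SD, n = 4) over its 2 spots, whose means were -0.03 and -0.20. HAL1, linked to salt tolerance, stood at -0.37 and -0.35 in high copper, against 0.37 and -0.02 in low copper (adjusted p = 0.295 for the difference). AIM45, a mitochondrial flavoprotein subunit, stood at 0.22 ± 0.34, with 0.69 on high copper replicate 2, and MRX21, a mitochondrial carrier, at 0.04 ± 0.13.

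**Figure D4:**
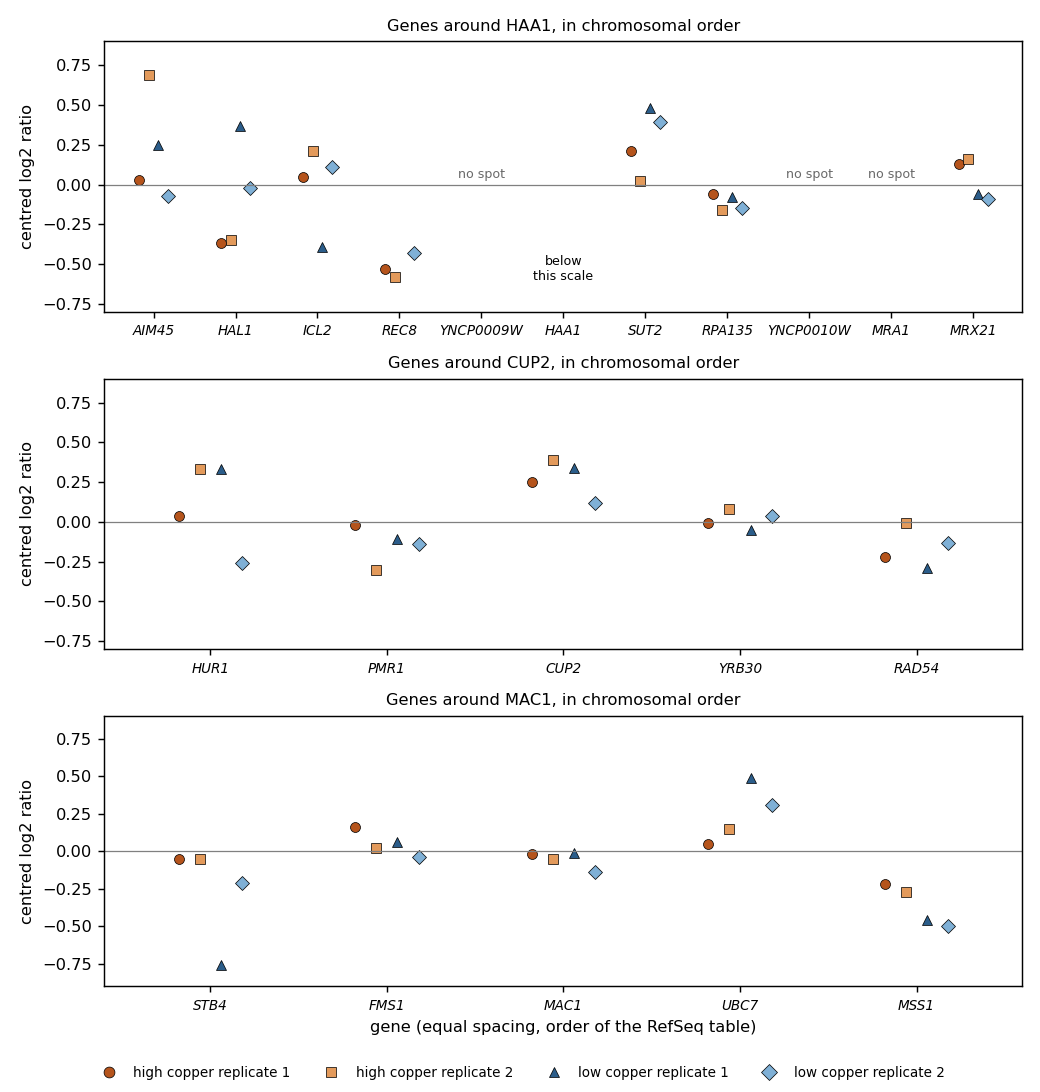
Centred log2 ratios of null over WT (vertical axis) for the genes around HAA1, CUP2 and MAC1 in chromosomal order (horizontal axis, equal spacing), 1 point per array, with HAA1 below the scale and STB4 shown by its fully measured spot. REC8 lies below 0 and SUT2 above 0 on each array that measured them, and MSS1 near MAC1 lies between -0.50 and -0.22.

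Around CUP2, none of the 4 genes within 2 places passed in limma over both conditions, where 11.7% of all genes did. Of these 4 genes, 0 had an unadjusted p under 0.05 (35.6% of all genes). Their means ran from -0.16 ± 0.12 for RAD54, a recombination ATPase, to 0.11 ± 0.28 for HUR1 (SD, n = 4). HUR1 overlaps PMR1, a Golgi calcium pump, in the RefSeq table, so their signals may not be separate. Around MAC1, 1 of 4 genes passed, where 11.7% of all genes did: MSS1, a GTPase of mitochondrial tRNA modification, at -0.22 and -0.27 in high copper, against -0.46 and -0.50 in low copper, a mean of -0.36 ± 0.14 (SD, n = 4) with an adjusted p of 0.0346. UBC7, a ubiquitin-conjugating enzyme of the endoplasmic reticulum, stood at 0.25 ± 0.19 with 0.0706, and FMS1, a polyamine oxidase, at 0.05 ± 0.08.

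Setting the 6 genes in order of their means over the arrays, HAA1 stood lowest, followed by REC8 (-0.51), MAC1 (-0.05), ICL2 (-0.01), and CUP2 and SUT2 (both 0.28). The ranges of HAA1 and REC8 did not overlap each other or those of the other members, whose lowest value was -0.39. The ranges of MAC1 and ICL2 overlapped, as did those of ICL2 and CUP2 and of CUP2 and SUT2. The gene nearest in profile was COQ5 for CUP2 (root mean square distance 0.0245 over 4 arrays), PTR2 for MAC1 (0.0203), SPT7 for ICL2 (0.0408), GPI18 for SUT2 (0.0464) and GAG1 for REC8 (0.0227 over 3 arrays). Between 237 and 1674 genes lay within 0.2 of each of these 5 members, so the nearest gene singles out little.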

How the data were processed

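The values were deposited by the authors as log ratios, taken here as log2, 1 for each spot of each array, with Cy5 (null) over Cy3 (WT) per the labels; how the authors normalized them, and the base, was not given in the sources used here. On high copper replicate 2, 25 of 52 values between 2.9 and 4.5 in size matched the log2 of a whole ratio to 0.0011, against 1 for natural log. The other arrays, whose values carry a constant, gave 0 or 1 for log2 and 1 to 8 for natural log, so the base is an assumption. HAA1 far below 0 matched the direction read from the dyes.

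Replicate numbers follow record order, and the labels' repeat mark stands on low copper replicate 2 and on high copper replicate 1. Of 8832 spots, 6956 had 1 gene name, 1876 none and 0 several, and the names were checked against RefSeq (R64). Arrays were centred on the median of spots measured on all 4. For each gene, the spots with the most values were averaged. limma 3.58.1 in R 4.3.3 fitted a mean per copper condition (lmFit, eBayes, 2 residual and 2.22 prior degrees of freedom, Benjamini-Hochberg over all genes). The second fit, over genes on at least 3 arrays with 1 value or more a condition, dropped missing values and had 2.04 prior degrees of freedom. In it, HAA1 and REC8 had a single low copper value, so their own residual spread came from the high copper pair alone. The fits were run on simulated independent noise with added changes larger than those of any member but HAA1, which was no test of the p-values given here. Intensities were not used here, so signal above background was unknown, and precision was limited by having 4 arrays. Members, lists and alternatives were chosen with earlier results of these data known. The genes named were the 6 members, the genes within 5 places of HAA1 and 2 of CUP2 and MAC1, up to 3 genes a list with the smallest p, and the nearest profiles. Other list genes, namely CRS5, CTR1, PIC2, HOP1, RED1 and PDH1, were chosen after their values were seen. MEK1, ZIP1 and SPO11 were added to complete the 6 meiotic genes without low copper replicate 1. No sequences are shown.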

Additional observations from a re-analysis of the deposited data

Results flagged for a closer look

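A spot with no gene name in the platform annotation, number 3313, was the only other spot of 7937 measured on low copper replicate 2 and both high copper arrays to lie below -4 on each of them. Its values were -5.99 and -6.07 in high copper, against -4.75 in low copper, a mean of -5.60, and low copper replicate 1 gave none, as for HAA1. STB4, a zinc cluster gene near MAC1, had a second spot (number 5817, directly before that of MAC1) that was left out of its value because it lacked low copper replicate 1. That spot stood at -3.18 and -1.46 in high copper, against -2.52 in low copper, a mean of -2.39, while the spot used stood at -0.05 and -0.05, against -0.21 on low copper replicate 2. Over these 3 arrays, spot means lay more than 1 apart for 70 of 1114 genes with several spots (6.28%).

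Among the genes named, 5 of 47 with all 4 values (10.6%) had one sign on both high copper arrays and the other on both low copper arrays, against 14.9% of all genes. SMC3 differed by 0.64 (0.06 in high copper and -0.58 in low copper, limma adjusted p = 0.256) and MRX21 by 0.22 (0.15 and -0.07, adjusted p = 0.385). Another 3 had been named after their values were seen: CRS5 differed by 0.59 (adjusted p = 0.256), CTR1 by -0.50 (0.257) and PIC2 by -0.74 (0.256). None of these 5 differences passed, and over all genes 0 passed in limma, with 792 at an unadjusted p under 0.05.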

How the results depend on the processing

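Over 6 members and 4 contrasts, 264 alternative values were computed, of which 246 kept their direction and, where a test was possible, their side of the threshold. Values with no test were counted as kept when they moved by less than the gene's SD over arrays. Part of the alternatives could hardly move a value, so the 246 is no measure of stability. Each member had 1 spot, none lay in the displaced run, and a low copper mean does not depend on the high copper arrays. No alternative turned the sign of HAA1, REC8, CUP2, MAC1 or SUT2 over both conditions, and ICL2 turned as given above, at 0.02 with arrays scaled. The causes of the changes were not tested. HAA1 was no longer past the threshold without centring (-6.47) and with separate spots (-6.45). CUP2 (0.27) and REC8 (-0.55) passed with arrays scaled to equal spread. With 1 array left out, values over both conditions ran between -7.15 and -5.75 for HAA1, -0.50 and -0.48 for REC8, -0.13 and 0.12 for ICL2, 0.22 and 0.33 for CUP2 and 0.23 and 0.33 for SUT2, the lone array of a condition being assumed to vary like the other pair. Without low copper replicate 2, high minus low copper turned to -0.02 for CUP2 and -0.03 for MAC1 (up to 0.20 and 0.11 without another array), and HAA1 and REC8 had no low copper value. Without low copper replicate 1, ICL2 in low copper turned to 0.11, against -0.39 without low copper replicate 2. In high copper the pair alone called HAA1 (limma adjusted p = 0.0387) and REC8 (0.0373), but it called 424 of 5523 genes, against 105 of 5537 in the main fit.

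Counts over all genes moved more. With 1 array left out, the 600 genes over both conditions became 0 to 1940, the 132 in high copper 0 to 898, the 34 in low copper 0 to 1438 and the 0 for high minus low copper 0 to 743. With genes on at least 3 arrays, the 469, 105, 30 and 0 became 0 to 1933, 0 to 907, 0 to 1443 and 0 to 746. Each of these 8 counts was 0 without either high copper array, and its largest value came without low copper replicate 2, which in high copper on all 4 arrays equalled that without low copper replicate 1. With the repeat mark as a replicate block, 36 genes passed over both conditions in either fit and 0 in each condition, and without a copper term 292 and, on at least 3 arrays, 242. Arrays scaled to equal spread gave 894 over both conditions, 363 in high and 61 in low copper, and on at least 3 arrays 779, 262 and 10 (both, high, low). Without centring 19 passed in low copper, and on at least 3 arrays 298 over both and 43 in high copper. Over both conditions the split of the 600 was 331 higher and 269 lower, and without centring 181 and 225. Separate spots on at least 3 arrays gave 41 in high and 16 in low copper. The displaced run moved back gave 201 in high copper, 63 in low copper and 2 for the difference. A condition's pair alone gave 898 in high and 0 in low copper, and on at least 3 arrays 424 and 0. No paired analysis by replicate number was possible because the labels number no replicates.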
